A study of Mus musculus with 4 samples.

Results

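The serotonin receptor genes *Htr1a*, *Htr1b*, *Htr1d*, *Htr1f*, *Htr5a*, *Htr2a*, *Htr2c*, *Htr4*, *Htr7* and *Htr3a*, (10 members) were followed through single-nucleus RNA sequencing of the mouse posterior hindbrain. They were taken by name from the receptor family and make up 10 of the 32285 genes counted. Their UMIs (unique molecular identifiers, each standing for 1 captured RNA molecule) were summed per library over the 39461 nuclei that the authors kept, in 14 annotated cell types and in the 134 neuronal clusters among 184 clusters in all. The neurons number 12539, and 120 of their clusters had at least 5 nuclei in each of the 4 libraries.

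The study asked how AgRP and POMC neurons of the hypothalamus, which drive and restrain feeding, act on neurons elsewhere in the brain. AgRP-Gq;POMC-Gi mice carry both recombinases, AgRP-IRES-Cre+/- and POMC-Dre+/-, together with hM3DGq fl/-, an activating receptor behind a Cre-dependent stop, and hM4DGi fl/-, an inhibitory receptor behind a Dre-dependent stop, both driven from the Rosa26 locus. Controls, called wild type in the sample labels, are described in the Methods as offspring of the same breeding, with both receptor alleles and neither AgRP-IRES-Cre nor POMC-Dre. All mice were C57BL/6, of both sexes and aged 12–20 weeks, and both groups had received clozapine-N-oxide (CNO) at 3 mg per kg intraperitoneally 1 h before tissue was taken. Any action of CNO shared by both groups is therefore not seen in these comparisons, and every cell in which the *Agrp* or *Pomc* locus had driven the recombinase, at any age, could carry the receptors. Each group had 2 libraries, with tissue of a condition pooled. The sources used here differ on the number of mice per group and do not state which mice went into which library, so the spread between libraries may not be that between animals.

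Serotonin is made by neurons of the raphe nuclei, and its receptors are grouped by the way they signal. Htr1 and Htr5 receptors act through Gi/o proteins and lower cyclic AMP, Htr2 receptors act through Gq/11 and phospholipase C, Htr4 and Htr7 act through Gs and raise cyclic AMP, and Htr3 receptors are cation channels opened by serotonin. In the hindbrain these receptors take part in the control of breathing, circulation, nausea and feeding, and Htr2c is the best known of them for the suppression of appetite.

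Libraries held 9723 to 10051 kept nuclei and 2470 to 3696 neurons, and the neurons were a larger share in AgRP-Gq;POMC-Gi libraries (38.0% and 36.5%) than in control libraries (25.4% and 27.2%). The 4 neuron markers *Rbfox3*, *Snap25*, *Syt1* and *Stmn2* were all highest in the annotated neurons, and 33 of 35 markers over 10 cell types were highest in their own type. Between 19 and 36 barcodes were shared by each pair of libraries. Values in sets of 4 are given in the order control replicates 1 and 2, then AgRP-Gq;POMC-Gi replicates 1 and 2. *Xist*, transcribed from the inactive X chromosome, stood at 507, 319, 541 and 16.2 CPM (UMIs of a gene per 1e+06 UMIs of the same nuclei) in neurons, so that AgRP-Gq;POMC-Gi replicate 2 stood apart. Choroid plexus nuclei numbered 2, 436, 6 and 329, and *Ttr*, their most abundant defining marker, was at 1.49, 1003, 7.53 and 580 CPM in neurons and at 5.97, 3333, 24.3 and 2085 CPM in oligodendrocytes. Since free RNA in the droplets gives UMIs in cells that do not express a gene, each level in neurons is set beside that in oligodendrocytes, which had a median of 2460 UMIs per nucleus against 8704 in neurons.

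**Figure D1:**
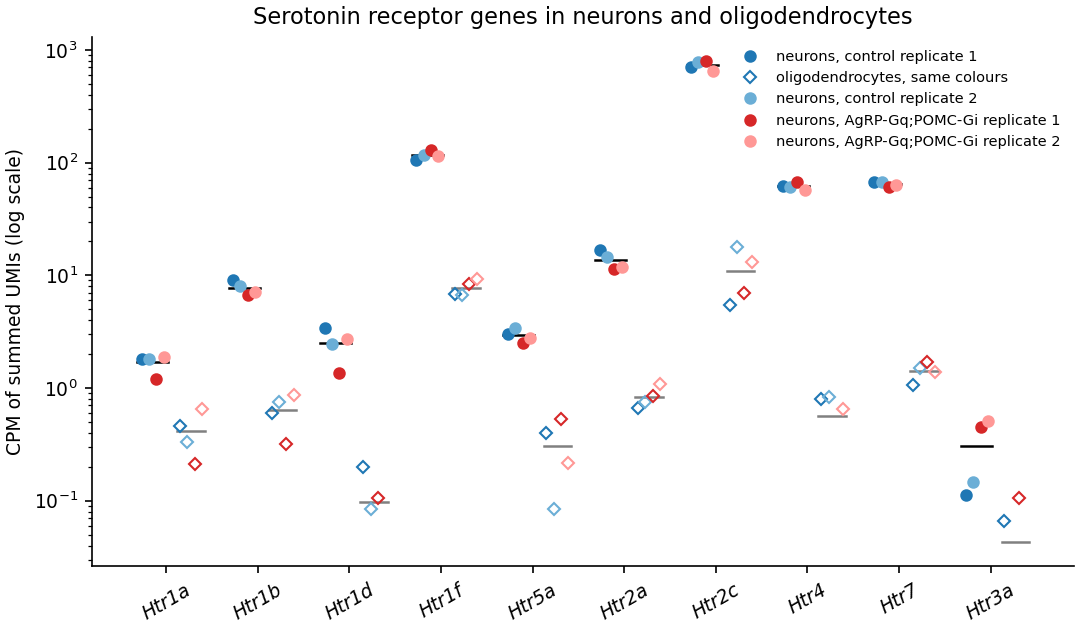
CPM of the 10 receptor genes (log axis) in neurons (filled points) and oligodendrocytes (open diamonds), 1 point per library, with bars for the mean of the 4 libraries. *Htr2c* had the highest CPM in neurons and *Htr3a* the lowest, and libraries at 0 are not drawn.

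Among the Gi/o-coupled receptors, *Htr1f* (ENSMUSG00000050783, 16:64924729-65105854 on GRCm38, minus strand) was the most widely detected. Its neuronal level was 106, 116, 130 and 115 CPM (117 ± 9.66, SD, n = 4), from 14721 UMIs, and 35.7% of neurons had at least 1 UMI (exact 95% binomial interval 34.8–36.5%) against 1.99% of oligodendrocytes. When each nucleus was thinned at random to 2000 UMIs, leaving 12373 neurons and 11400 oligodendrocytes with that depth, the shares were 15.1% and 1.62%. *Htr1f* codes for a receptor that is the target of the migraine drug lasmiditan. It was higher in neurons than in tanycyte-like cells, the next cell type (22.8 ± 19.1 CPM), with no overlap of the library values.

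*Htr1b* (ENSMUSG00000049511, 9:81628291-81633828, minus strand), known as an autoreceptor on serotonin terminals and as a presynaptic receptor of other neurons, was sparse, at 9.08, 7.98, 6.75 and 7.14 CPM in neurons. Of all neurons, 6.07% had a UMI (1.41% after thinning), against 0.161% of oligodendrocytes (0.114% after thinning). An antisense gene, *D430036J16Rik*, overlaps *Htr1b* on the other strand. The highest mean of *Htr1b* over cell types, 13.7 ± 27.4 CPM in Ms4a4b immune cells, rested on 1 UMI in 61 nuclei. Oligodendrocytes/OPC came next, at 9.91 ± 9.62 CPM from 6 UMIs in 5 of 123 nuclei, ahead of neurons at 7.74 ± 1.03. Endothelial cells followed at 5.78 ± 5.35 CPM and fibroblasts at 4.89 ± 1.83. The library values of neurons overlapped those of the types placed next to them.

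The remaining Gi/o-coupled members were close to the limit of detection. *Htr1d* (ENSMUSG00000070687, 4:136423524-136444398, plus strand), the close relative of *Htr1b*, stood at 3.43, 2.44, 1.35 and 2.75 CPM in neurons, with UMIs in 2.05% of them. *Htr1a* (ENSMUSG00000021721, 13:105443639-105448122, plus strand), the autoreceptor on serotonin cell bodies, stood at 1.82, 1.82, 1.21 and 1.90 CPM with UMIs in 1.56% of neurons, and *Htr5a* (ENSMUSG00000039106, 5:27842149-27855088, plus strand) at 3.02, 3.43, 2.50 and 2.78 CPM in 2.76%. In oligodendrocytes these shares were 0.0297%, 0.113% and 0.0833%. All 3 genes had their highest mean in neurons, but their library values there overlapped those of the next cell type.

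Of the Gq/11-coupled pair, *Htr2c* (ENSMUSG00000041380, X:146962513-147197277, plus strand) had 707, 778, 800 and 655 CPM in neurons (735 ± 66.6, n = 4), from 91900 UMIs. UMIs were found in 64.8% of neurons (64.0–65.6%) and 2.65% of oligodendrocytes, or in 46.7% and 2.04% after thinning. AgRP-Gq;POMC-Gi replicate 2, the library with little *Xist*, was the lowest of the 4 for this X-linked gene. The part of that difference in *Htr2c* was not tested. Within *Htr2c*, 8 small RNA genes lie on the same strand, among them *Mir1912*, *Mir1264*, *Mir1298* and *Mir448*, whose precursor RNA could not be told apart from that of the host gene here.

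*Htr2c* was higher still in the choroid plexus, the epithelium that secretes cerebrospinal fluid and where this receptor was first described. There it stood at 14041, 12694 and 14250 CPM in control replicate 2 and AgRP-Gq;POMC-Gi replicates 1 and 2, with 27288, 319 and 22258 UMIs, while control replicate 1 had only 2 choroid plexus nuclei and no UMI of the gene. Of the 722 choroid plexus nuclei with enough UMIs, 98.5% had a UMI of *Htr2c* after thinning. In the 2 libraries rich in these nuclei, *Htr2c* was at 12556 and 13427 CPM in cluster 23, at 12680 and 12211 in cluster 29 and at 17294 and 16852 in cluster 34, the highest of the 3 choroid plexus clusters in both.

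Because the libraries with many choroid plexus nuclei also had *Ttr* in every other cell type, both values were set side by side. *Htr2c* UMIs per *Ttr* UMI, pooled over all libraries, were 0.392 in choroid plexus, 0.00817 in oligodendrocytes and 1.90 in neurons. The neuronal value is raised by the libraries with little *Ttr*, and it was lower in each of the 2 libraries rich in choroid plexus nuclei. In oligodendrocytes *Htr2c* was at 5.44, 18.0, 6.95 and 13.3 CPM, higher in the 2 libraries rich in choroid plexus nuclei. In neurons the libraries were not ordered in this way, with 778 and 655 CPM in those rich in choroid plexus nuclei and 707 and 800 CPM in the others. The mean in tanycyte-like cells, 249 CPM, came almost wholly from 1 nucleus, which held 94 of the 98 UMIs.

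**Figure D2:**
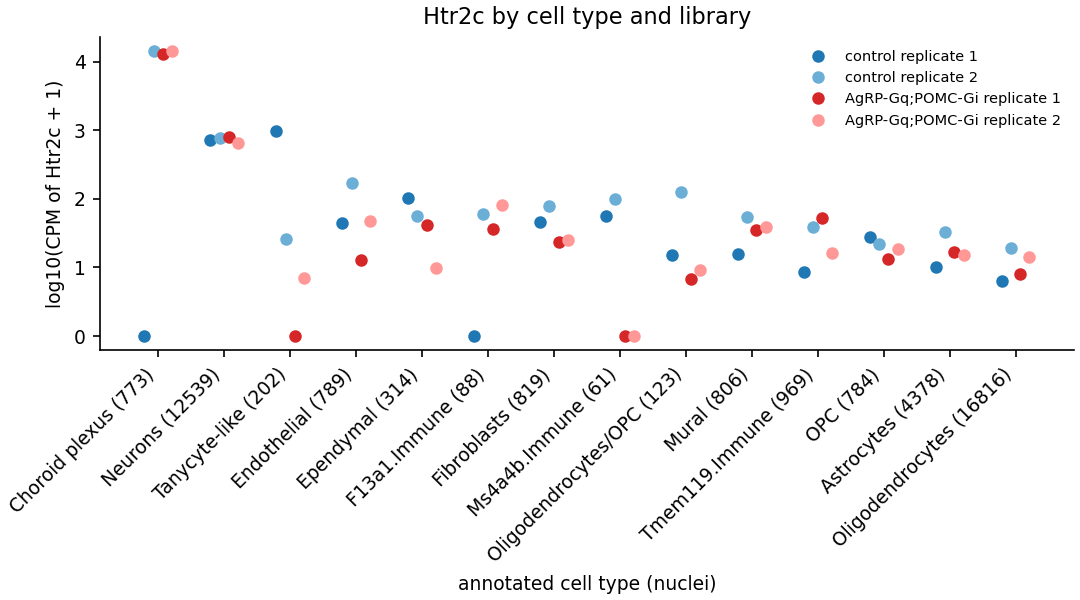
*Htr2c* in each annotated cell type as log10(CPM + 1), 1 point per library, with the number of nuclei in parentheses. Choroid plexus (3 of 4 libraries) and neurons (4 of 4) stand above the other types, apart from 1 library of tanycyte-like cells.

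*Htr2a* (ENSMUSG00000034997, 14:74640840-74709494, plus strand), the receptor through which classical psychedelic drugs act, reached 16.8, 14.6, 11.5 and 11.9 CPM in neurons, with UMIs in 8.85% of them (8.36–9.36%) and in 0.202% of oligodendrocytes. Endothelial cells had more per UMI sequenced, at 43.6, 39.5, 23.3 and 20.4 CPM (31.7 ± 11.6). This rested on 44 UMIs in 33 of 789 nuclei, with at most 4 in a nucleus. The library values of endothelial cells and neurons did not overlap. In neurons both AgRP-Gq;POMC-Gi libraries lay below both control libraries for *Htr2a*, as for 27.7% of the 12115 genes tested. The endothelial UMIs were 16, 17, 4 and 7, under the minimum of detection, so the groups were not tested there.

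The Gs-coupled receptors were at like CPM in neurons. *Htr4* (ENSMUSG00000026322, 18:62324204-62496577, plus strand), a receptor that in the brainstem supports breathing rhythm, stood at 61.8, 60.3, 67.6 and 57.3 CPM, with UMIs in 29.0% of neurons and 0.149% of oligodendrocytes. *Htr7* (ENSMUSG00000024798, 19:35958734-36057507, minus strand), known for its part in circadian timing and body temperature, stood at 66.7, 67.4, 60.4 and 63.5 CPM, in 32.5% of neurons and 0.333% of oligodendrocytes. After thinning, 9.12% and 10.1% of neurons still had a UMI of *Htr4* and *Htr7*, against 0.0965% and 0.228% of oligodendrocytes. Both were highest in neurons, and the library values there did not overlap those of the next type.

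*Htr3a* (ENSMUSG00000032269, 9:48899213-48911099, minus strand), the subunit that every serotonin-gated channel needs, was barely detected, with 0.112, 0.146, 0.450 and 0.510 CPM in neurons. Its 41 UMIs came from 39 of 12539 neurons (0.311%, 0.221–0.425%), and 2 UMIs were found in oligodendrocytes. An antisense gene, *Gm32335*, overlaps it on the other strand.

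CPM takes no account of gene length, and nuclear RNA holds introns as well as exons, so levels were also divided by both lengths. UMIs count molecules and need not scale with either length, so these orders depend on the division. In CPM per kb of gene span the neuronal order was *Htr2c* (3.13 ± 0.284), *Htr1b* (1.40 ± 0.187), *Htr7* (0.653 ± 0.0327), *Htr1f* (0.645 ± 0.0533), *Htr1a* (0.377 ± 0.0718), *Htr4* (0.358 ± 0.0251), *Htr5a* (0.226 ± 0.0303), *Htr2a* (0.199 ± 0.0363), *Htr1d* (0.119 ± 0.0415) and *Htr3a* (0.0256 ± 0.0172). Neighbours that did not differ beyond their spread were *Htr7* and *Htr1f*, *Htr1a* and *Htr4*, and *Htr5a* and *Htr2a*. In CPM per kb of exon the order was *Htr2c* (78.8 ± 7.14), *Htr1f* (45.3 ± 3.74), *Htr7* (19.0 ± 0.951), *Htr4* (12.6 ± 0.882), *Htr2a* (2.44 ± 0.445), *Htr1b* (1.64 ± 0.219), *Htr1d* (0.778 ± 0.27), *Htr5a* (0.545 ± 0.0729), *Htr1a* (0.377 ± 0.0718) and *Htr3a* (0.146 ± 0.0983). Of neighbours in this order, *Htr1d* and *Htr5a* did not differ beyond their spread. *Htr2c* led and *Htr3a* came last on both scales, while the place of *Htr1b*, whose gene is 5.54 kb long against 235 kb for *Htr2c*, turned on the length used. Undivided, *Htr1b* had 7.74 CPM, against 117, 64.5 and 61.7 CPM for *Htr1f*, *Htr7* and *Htr4*.

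A neuronal cluster was counted as above background for a gene when its CPM in every library exceeded the highest CPM of that gene in oligodendrocytes of any library. Among the 120 clusters this held in 111 for *Htr2c*, 102 for *Htr7*, 96 for *Htr1f*, 89 for *Htr4*, 42 for *Htr2a* and 35 for *Htr1b*. It held in 8 clusters for *Htr1d*, 7 for *Htr5a*, 4 for *Htr1a* and 0 for *Htr3a*. These low counts depend on the rule. By thinned shares, with the lower bound of the interval above the share in oligodendrocytes, they were 16, 18, 4 and 7. For *Htr3a* that share in oligodendrocytes was 0, so any cluster with a UMI left after thinning passed. Its 7 clusters therefore do not show a level above background. Small clusters miss this rule easily for a sparse gene, because 1 library without a UMI is enough. The clusters were built from expression, so levels across them are a description and carry no test.

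**Figure D3:**
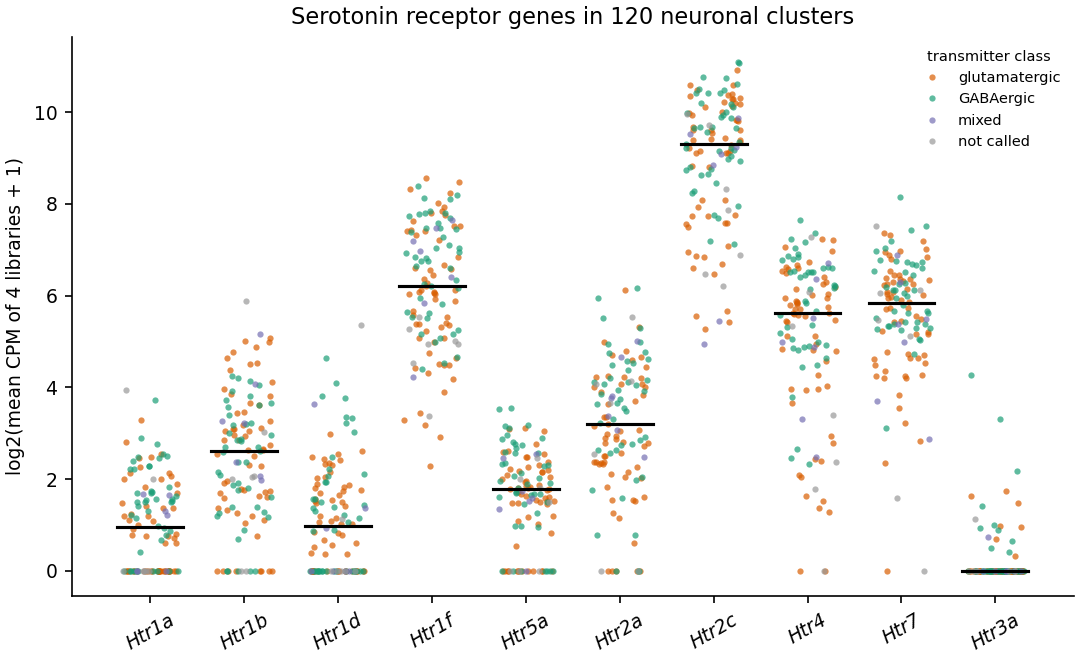
Mean CPM of the 4 libraries, as log2(CPM + 1), for each of 120 neuronal clusters (points) and each receptor gene, coloured by transmitter class, with bars for the median cluster. Medians run from 628 CPM for *Htr2c* to 0 for *Htr3a*, and *Htr3a* is at 0 in 101 clusters, as *Htr1a* and *Htr1d* are in 47 each.

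*Htr2c* and the receptors next to it were spread over many clusters. The median cluster had 628 CPM of *Htr2c*, 73.1 of *Htr1f*, 55.9 of *Htr7* and 48.2 of *Htr4*, and it took 23, 19, 27 and 19 clusters to hold 50% of the neuronal UMIs of these genes. *Htr1d* was the most unevenly spread of the Gi/o group, with 50% of its UMIs in 11 clusters. With 92.5% of all clusters above background for *Htr2c*, the 89 for *Htr4* were all among them and made up 80.2% of the *Htr2c* clusters, against 74.2% of all clusters. The 42 for *Htr2a* were also all among them and made up 37.8%, against 35.0% of all clusters.

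Clusters carried several receptors at once. Counting members above background, 35 clusters had 4, 25 had 5, 21 had 6 and 3 had 7, while 16 had 3, 10 had 2, 5 had 1 and 4 had none. Cluster 28 (*Mecom*/*Sema3a*, named here and below by its number and 2 genes of the authors' label) had 9, all members but *Htr3a*. It is also the largest neuronal cluster, with 227 nuclei, and sparse genes pass the rule more easily in large clusters. It was not among the clusters named below as highest for any member. The 4 clusters with no member above background were 49 (*Ccbe1*/*Tspan18*), 104 (*Gabra6*/*Fat2*), 117 (*Ebf2*/*Nmu*) and 148 (*Ccdc172*/*Ebf2*). *Gabra6* and *Fat2* are genes of cerebellar granule cells. The median depths of these 4 clusters were 5878, 3548.5, 6872 and 4371 UMIs. They did not pass the rule but did not lack the receptors, as all 120 clusters had UMIs of *Htr2c* and *Htr1f*. Within single neurons, 15.7% had no UMI of any member, 27.5% had UMIs of 1, 27.8% of 2, 18.4% of 3 and 8.43% of 4, and these counts went up with depth, from a median of 5585 UMIs in neurons with none to 13727 in those with 4.

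The clusters highest for *Htr2c* were 132 (*Npas1*/*Skor2*), at 2097, 1961, 2930 and 1730 CPM (2179 ± 523), and 133 (*Nxph2*/*Nox4*), at 1890, 2389, 2135 and 2160 CPM (2144 ± 204). After them came 174 (*Prdm6*/*Grp*), with 1931 ± 661 CPM. UMIs of *Htr2c* were found in 95.4%, 96.9% and 92.3% of their nuclei. The first 2 are GABAergic and 174 is glutamatergic, and their library values overlap.

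*Htr1f* was highest in clusters 151 (*Lhx2*/*Reln*), 62 (*Reln*/*Calcr*) and 67 (*Foxp2*/*Il1rapl2*), with 380 ± 54.8, 354 ± 60.1 and 333 ± 81.2 CPM and UMIs in 72.2%, 72.1% and 75.8% of nuclei. Cluster 151 had 316, 450, 381 and 373 CPM, above the neuronal mean of 117 in each library. At the other end, cluster 72 (*Ano2*/*Foxp2*) had 14.7, 0, 0 and 11.3 CPM of *Htr1f*, although the same cluster was among the highest for *Htr2a*.

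*Htr2a* was highest in clusters 89 (*Necab1*/*Arhgap15*), at 84.4, 90.9, 57.8 and 52.1 CPM, 72 (*Ano2*/*Foxp2*), at 89.1, 41.5, 66.8 and 79.4 CPM, and 95 (*Tfap2b*/*Esr1*), at 96.7, 58.6, 58.8 and 28.7 CPM. UMIs of it were found in 33.9%, 46.5% and 31.4% of their nuclei, against 8.85% of all neurons. In cluster 72 control replicate 2 and AgRP-Gq;POMC-Gi replicate 1 had 6 nuclei each, with 2 and 3 UMIs of *Htr2a*, and the same libraries gave the zeros of *Htr1f*.

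*Htr7* was led by cluster 86 (*Tfap2b*/*Col25a1*), with 260, 301, 253 and 321 CPM (284 ± 32.6) and UMIs in 68.5% of nuclei. Clusters 180 (*Cpa6*/*Cngb3*) and 55 (*Rab38*/*Ano1*) followed at 184 ± 97.6 and 182 ± 60.3 CPM. For *Htr4* the highest were 162 (*Chrdl1*/*Kcnh8*), at 201 ± 64.7 CPM, 79 (*Kcnmb2*/*Slc6a5*), at 164 ± 10.7, and again 180, at 155 ± 99.7. Cluster 79, whose label gene *Slc6a5* is the glycine transporter of glycinergic neurons, was the most even of these, with 165, 157, 179 and 155 CPM. For each member the library values of neighbouring places at the top of the order overlapped.

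*Htr1b* and *Htr1d* shared their highest cluster, 167 (*Tph2*/*Slc6a4*). *Tph2*, the enzyme of serotonin synthesis in neurons, was at 1341 ± 568 CPM there and had UMIs in 83.7% of nuclei, and *Slc6a4*, the serotonin transporter, in 67.4%. The cluster has 43 nuclei, 22, 5, 11 and 5 per library. *Htr1b* was at 104, 0, 82.03 and 45.7 CPM, from 35 UMIs in 46.5% of nuclei, and *Htr1d* at 95.7, 54.1, 10.3 and 0 CPM, from 28 UMIs in 34.9%.

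These levels stand well above the neuronal means of 7.74 and 2.49 CPM, but 1 library of 5 nuclei was at 0 for each gene. *Htr1a*, known as the somatic autoreceptor of such cells, was at 12.0, 0, 0 and 45.7 CPM, from 4 UMIs in 3 of the 43 nuclei. Its mean of 14.4 CPM was also the highest of the 120 clusters, against 1.69 CPM in all neurons, but 2 of the 4 libraries had no UMI. *Htr2c* was at 315, 288, 103 and 229 CPM in the cluster, below its neuronal mean of 735 in every library. *Htr4* and *Htr3a* had no UMI there (0 of 43 nuclei), and *Htr7* had 2. Among clusters with UMIs in at least 3 libraries, the next for *Htr1b* were 134 (*Dach1*/*Sema3a*), at 34.6 ± 15.4 CPM, and 153 (*Lmo3*/*Cpne4*), at 31.1 ± 21.3, and those for *Htr1d* were 81 (*Gbx1*/*Fgf10*), at 16.03 ± 10.5, and 78 (*Ebf2*/*Adarb2*), at 12.5 ± 9.75.

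The 250 bases before a RefSeq start (GRCm38.p6) of *Htr1b*, *Htr1d* and *Htr2c* are shown because the first 2 share their highest cluster and the last is the most abundant member. Capitals mark the motifs that were found, searched on both strands. The motifs searched were the CCAAT box, the GC box with the letters GGGCGG, the core of ETS sites with the letters CGGAAG, the TATA box as TATAAA and a homeodomain motif as TAATCC.
Htr1b (9:81633833-81634082, minus strand): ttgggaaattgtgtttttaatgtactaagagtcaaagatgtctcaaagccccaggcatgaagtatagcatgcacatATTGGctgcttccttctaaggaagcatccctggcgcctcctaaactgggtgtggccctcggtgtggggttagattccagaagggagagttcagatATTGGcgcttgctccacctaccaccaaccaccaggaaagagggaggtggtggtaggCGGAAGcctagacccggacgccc
Htr1d (4:136423274-136423523, plus strand): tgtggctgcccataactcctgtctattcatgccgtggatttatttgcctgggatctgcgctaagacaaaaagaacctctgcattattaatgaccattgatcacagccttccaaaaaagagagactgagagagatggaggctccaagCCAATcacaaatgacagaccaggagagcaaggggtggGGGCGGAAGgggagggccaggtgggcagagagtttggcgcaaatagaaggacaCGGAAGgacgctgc
Htr2c (X:146962263-146962512, plus strand): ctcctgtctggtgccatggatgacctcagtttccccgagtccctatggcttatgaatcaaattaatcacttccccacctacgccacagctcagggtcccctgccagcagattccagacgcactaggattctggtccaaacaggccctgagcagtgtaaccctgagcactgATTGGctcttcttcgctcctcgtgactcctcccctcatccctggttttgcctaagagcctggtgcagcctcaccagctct
All 3 hold CCAAT on one strand or the other, which 33.8% of all 32851 promoters of this length do, and the first 2 hold CGGAAG, as 13.6% do. GGGCGG, present in 32.7% of promoters, is in that of *Htr1d*, where it overlaps a CGGAAG. A second RefSeq start of *Htr1d*, with its promoter at 4:136424362-136424611, has GGGCGG but neither CCAAT nor CGGAAG. Neither TATAAA (12.4% of promoters) nor TAATCC (6.25%) is in any of the 9 promoters found for 8 members. The motifs and the genes shown were chosen after values were seen, and a match is only a match of letters.

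*Htr5a* and *Htr1a* were sparse in every cluster. Among clusters with UMIs in at least 3 libraries, *Htr5a* was highest in clusters 145 (*Col12a1*/*Tnc*), 59 (*Kcnmb2*/*Sema3a*) and 95 (*Tfap2b*/*Esr1*), at 10.8 ± 7.61, 10.5 ± 7.05 and 7.86 ± 1.44 CPM, from 5, 11 and 9 UMIs. Cluster 95 had 8.80, 6.17, 9.28 and 7.18 CPM, above the neuronal mean of 2.93 in each library, but from only 2, 2, 3 and 2 UMIs. By the same rule, which leaves out the serotonin cluster 167, *Htr1a* was highest in clusters 156 (*Ankfn1*/*Pou4f1*), 46 (*Col18a1*/*Gpc3*) and 64 (*Ebf3*/*Pax2*), at 8.78 ± 7.67, 6.44 ± 6.51 and 4.82 ± 2.57 CPM, from 4, 10 and 5 UMIs. *Htr3a* met the rule for naming in cluster 133 only, with 0, 28.6, 38.0 and 6.69 CPM from 8 UMIs.

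Clusters were classed by the vesicular transporters *Slc17a6* (glutamate) and *Slc32a1* (GABA and glycine), with a 4-fold difference, into 69 glutamatergic and 46 GABAergic clusters, 7 mixed and 12 not called. GABAergic neurons had more of 4 members in 4 of 4 libraries with no overlap of the values, as for 9.48% of the 12354 genes detected, while 6.39% of these genes were lower without overlap. These were *Htr2c* (869 ± 45.5 against 680 ± 108.7 CPM), *Htr1f* (138 ± 10.2 against 107 ± 12.7), *Htr4* (74.2 ± 1.24 against 53.9 ± 6.78) and *Htr7* (73.4 ± 1.76 against 58.8 ± 4.04). Of the tested clusters, 45 of 45 GABAergic and 55 of 61 glutamatergic ones were above background for *Htr2c*. With a 10-fold difference in place of 4-fold, which leaves 25 GABAergic clusters, *Htr4* and *Htr7* were 1.26 and 1.19 times as high in GABAergic neurons and still did not overlap, and the sparse *Htr5a* was 1.66 times as high with no overlap (8.48% of 12352 genes were higher and 6.72% lower without overlap). *Htr2c* was 1.13 times as high with overlap, and the direction for *Htr1f* turned (0.968 times). *Htr1b* was the only member higher in glutamatergic neurons in 4 of 4 libraries (8.18 ± 0.887 against 6.27 ± 0.993 CPM), and its values overlapped. With the 10-fold rule this held in 3 of 4. Both classes had like depth, with median UMIs of 8881 and 8765.

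Among clusters that the study describes, *Htr2c* ranged widely. The *Gcg*/*Reln* cluster, which makes the GLP-1 precursor, had 778, 646, 716 and 827 CPM and was place 52 of 120. Cluster 82 (*Tal1*/*Nell1*) had 361, 477, 361 and 397 CPM and was place 83. Others lay at the low end, with 211 ± 206 CPM in the *Rxfp1*/*Ebf2* cluster, 113 ± 138 in cluster 97 (*Gfral*/*Sctr*), whose label gene codes for the GDF15 receptor, and 95.8 ± 79.7 in cluster 63 (*Ebf2*/*Th*). *Htr2a* was in place 18 in cluster 82, at 45.7, 26.2, 0 and 22.8 CPM, and had no UMI in cluster 97 (0 of 101 nuclei, which allows a share of up to 2.97% of nuclei with a UMI). *Htr7* was at 61.7 ± 20.0 CPM in cluster 63, close to the median cluster, and *Htr4* was at 90.1 ± 27.1 CPM in cluster 82.

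As a description over the 120 clusters, which share libraries and differ in depth, the pattern of each member was compared with 13054 genes by Pearson r of log2(mean CPM + 1). *Htr2c* was most like *Htr4* (r = 0.66), *Gab3* (0.62) and *Ube3a* (0.61), so that 1 member led the list of another. *Htr4* itself was most like *B230217J21Rik* (0.80), *Nova1* (0.79) and *Gm33680* (0.75), and *Htr1f* was most like *Tespa1* (0.56), *Fggy* (0.52) and *Spsb4* (0.51). All 3 genes most like *Htr1b* lie near it on chromosome 9, namely *Gm27226* (0.80, at a gap of 167 kb), *D430036J16Rik* (0.78, overlapping) and *Gm26713* (0.77, at 425 kb).

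Neighbouring genes also came up for other members. *A830019P07Rik*, 34.2 kb from *Htr7* on the same strand, led the list of *Htr7* (0.64), ahead of *Tmem18* (0.54) and *Asb18* (0.46). *Htr2a* was most like *Nmnat3* (0.45), *Gm49171* (0.45, at 190 kb) and *Ube3a* (0.41). Of the 30 genes named in this way, 5 lie within 500 kb of their member. For the sparse members the likeness was low, at most 0.42, led by *4930590J08Rik* for *Htr1d*, *Tox3* for *Htr1a*, *Cenpj* for *Htr5a* and *Trps1* for *Htr3a*. Among the members themselves the next pairs were *Htr1f* with *Htr2c* (0.48) and *Htr1f* with *Htr4* (0.44).

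No member was called between the groups in neurons as a whole. Of the 10 members, 6 passed the minimum of a UMI in 5% of nuclei, and 0 of them were called by edgeR's quasi-likelihood test at an adjusted p of 0.05, as were 0 of 12115 genes (0% of all genes tested). At an unadjusted p under 0.05 there was 1 member, *Htr2a*, beside 667 genes (5.51%), and DESeq2 called 12 genes and 0 members. A sum over all neurons does not separate fewer nuclei of a cluster from less RNA per nucleus, and the tests within clusters are given below.

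*Htr2a* was at 16.8 and 14.6 CPM in control libraries and 11.5 and 11.9 in AgRP-Gq;POMC-Gi libraries, with no overlap. Both AgRP-Gq;POMC-Gi libraries lay below both control libraries for 27.7% of the 12115 genes tested, and above both for 10.4%. The log2 fold change was -0.37 (SE 0.12, edgeR adjusted p = 0.810). In GABAergic neurons it had 17.7 and 18.8 against 13.6 and 10.5 CPM (log2 fold change -0.54, SE 0.17, edgeR adjusted p = 0.912), where 25.4% of genes had both AgRP-Gq;POMC-Gi libraries below both control libraries. It had, in glutamatergic neurons, 16.4 and 10.3 against 9.004 and 11.3 CPM, with overlap. In all neurons *Htr1b* (-0.24, SE 0.13) and *Htr7* (-0.056, SE 0.066) also had both AgRP-Gq;POMC-Gi libraries below both control libraries in CPM, which makes 3 of the 6 members tested. *Htr1f* (0.20, SE 0.10), *Htr4* (0.098, SE 0.12) and *Htr2c* (0.037, SE 0.14) overlapped. The mean CPM of *Htr2c*, 742 in control and 728 in AgRP-Gq;POMC-Gi libraries, went the other way from its estimate, which uses TMM factors. Within the transmitter classes *Htr1b* overlapped in both. *Htr7* overlapped in glutamatergic neurons but not in GABAergic neurons, where its log2 fold change was -0.00028 (SE 0.081).

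**Figure D4:**
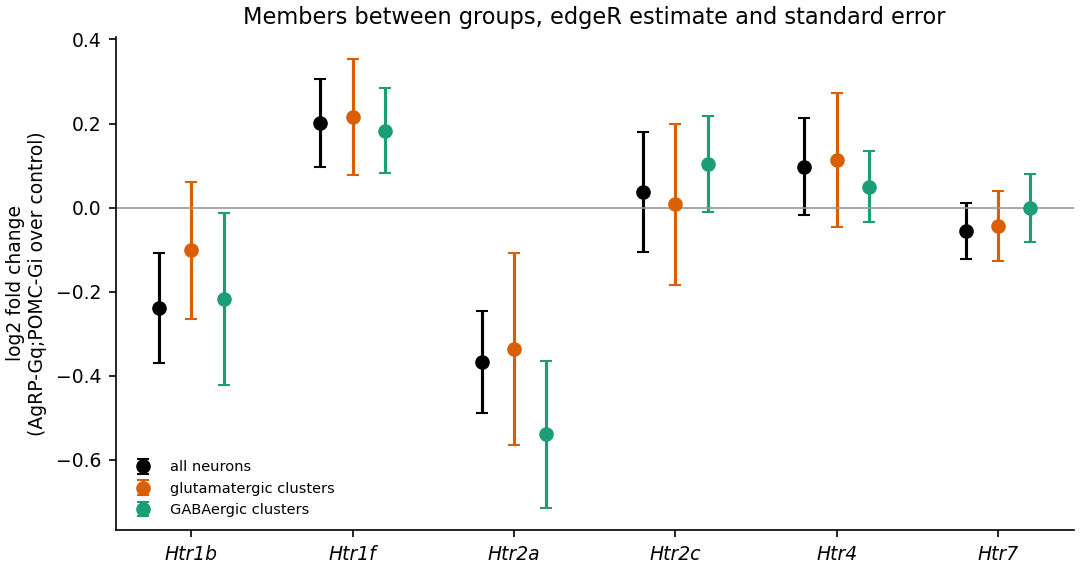
Log2 fold change of the 6 tested members between AgRP-Gq;POMC-Gi mice and controls, edgeR estimate with its standard error, in all neurons and in glutamatergic and GABAergic clusters (2 libraries per group). *Htr2a* has the lowest estimates, -0.37 in all neurons and -0.54 in GABAergic neurons, and none passed the adjusted threshold.

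These results leaned on 1 library. Without AgRP-Gq;POMC-Gi replicate 2, the one with little *Xist*, 3 members were called higher by edgeR, *Htr1f* (0.34, adjusted p = 0.0159), *Htr4* (0.26, adjusted p = 0.0254) and *Htr2c* (0.22, adjusted p = 0.0489), and 2017 of 12115 genes were called in either direction. A fit with 1 library left out has a single library in that group, which is assumed to vary like the other group. In the transmitter classes 0 members were called over both (0 of 12150 genes in glutamatergic and 0 of 12097 in GABAergic neurons), with 677 (5.57%) and 602 (4.98%) genes at an unadjusted p under 0.05 and 11 and 3 genes by DESeq2. The difference between the classes in their response was tested as an interaction, in which 0 of 6 members and 0 of 12354 genes were called and 601 genes (4.86%) had an unadjusted p under 0.05.

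Within clusters, 603 pairs of a member and a cluster could be tested and 4 were called at an adjusted p of 0.05 within the cluster, 2 higher and 2 lower in AgRP-Gq;POMC-Gi mice. Over all genes 537 of 1396489 pairs were called (0.0385%, 0.0195% higher and 0.0189% lower), and without TMM factors the split was 228 higher and 371 lower in place of 273 and 264. Adjusted over all pairs, 2 pairs of a member were called, against 389 pairs of any gene (0.0279%).

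**Figure D5:**
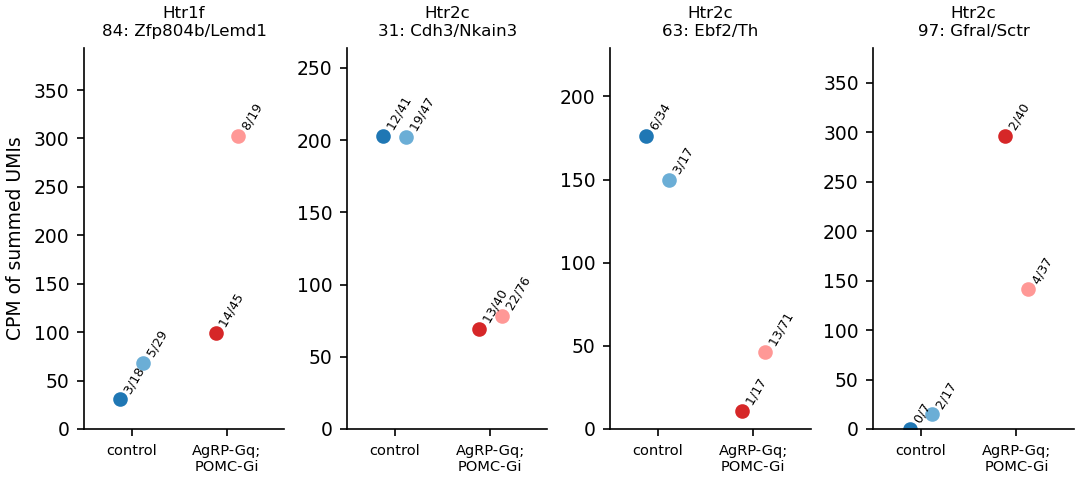
CPM per library of the 4 called pairs of a receptor gene and a cluster, control libraries on the left and AgRP-Gq;POMC-Gi libraries on the right of each panel, with nuclei that had a UMI over all nuclei of the cluster beside each point. *Htr2c* is lower in both AgRP-Gq;POMC-Gi libraries in clusters 31 and 63 and higher in cluster 97, and *Htr1f* is higher in cluster 84.

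*Htr2c* fell in cluster 31 (*Cdh3*/*Nkain3*), from 203 and 202 CPM in the controls to 69.4 and 78.2 CPM in AgRP-Gq;POMC-Gi mice. The UMIs were 112, 107, 30 and 74, and 12 of 41, 19 of 47, 13 of 40 and 22 of 76 nuclei had one. The log2 fold change was -1.40 (SE 0.20, edgeR adjusted p = 0.00085 within the cluster and 0.000998 over all pairs). The call was lost in DESeq2 (adjusted p = 0.177). It was kept in the fits with each library left out, each with a single library in 1 group. The shares of nuclei with a UMI, 29.3% and 40.4% against 32.5% and 28.9%, overlapped between the groups, and the highest count in 1 nucleus was 29 and 16 in control libraries and 6 and 15 in AgRP-Gq;POMC-Gi libraries.

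In cluster 97 (*Gfral*/*Sctr*) *Htr2c* was called higher, with 0 and 14.6 against 296 and 141 CPM (log2 fold change 4.59, SE 0.70, edgeR adjusted p = 0.000523). The 97 and 40 UMIs of the AgRP-Gq;POMC-Gi libraries came from 2 and 4 nuclei, of which 1 in each held 74 and 33 UMIs. The control libraries had 7 and 17 nuclei of the cluster, against 40 and 37. The call was lost without either AgRP-Gq;POMC-Gi library (adjusted p = 0.999 and 0.966) and in DESeq2 (adjusted p = 0.371).

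In cluster 63 (*Ebf2*/*Th*) *Htr2c* was called lower, with 176 and 150 against 10.7 and 46.4 CPM, from 45, 20, 1 and 22 UMIs (log2 fold change -2.07, SE 0.39, edgeR adjusted p = 0.0342). Of the control UMIs, 21 and 17 came from 1 nucleus each. The call was lost over all pairs (adjusted p = 0.0621), without control replicate 1 (0.645), without TMM factors (0.0885), with filterByExpr (0.174) and in DESeq2.

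*Htr1f* was called higher in cluster 84 (*Zfp804b*/*Lemd1*), with 30.5 and 68.3 against 99.6 and 303 CPM from 5, 17, 38 and 53 UMIs (log2 fold change 1.83, SE 0.39, edgeR adjusted p = 0.0250). The call was lost over all pairs (0.0506), without control replicate 1 (0.559), without AgRP-Gq;POMC-Gi replicate 2 (0.720), with filterByExpr (0.163) and in DESeq2.

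At an unadjusted p under 0.05 there were 89 of the 603 pairs (14.8%), against 4.52% of pairs over all genes. They fell mainly on the members with the most UMIs, *Htr2c* with 33 of 119 clusters (26 higher, 7 lower) and *Htr1f* with 26 of 118 (22 higher, 4 lower). Of such pairs over all genes 53.1% were higher, and 39.5% without TMM factors, where the members' splits were 26 higher and 14 lower for *Htr2c* and 18 and 5 for *Htr1f*. *Htr2a* had 10 of 68, *Htr4* 9 of 100, *Htr7* 9 of 114, *Htr1b* 1 of 52 and *Htr1d* 1 of 13, and *Htr5a* (13 clusters), *Htr1a* (4) and *Htr3a* (2) had none. The clusters share the same 4 libraries, so these pairs are not independent of each other.

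Outside neurons only *Htr2c* passed the minimum of detection in a type with at least 5 nuclei in each library. In ependymal cells it was at 101, 54.8, 41.2 and 8.69 CPM (log2 fold change -1.59, SE 0.60, edgeR adjusted p = 0.991) and in Ms4a4b immune cells at 54.8, 99.0, 0 and 0 CPM (adjusted p = 0.779), from 4 UMIs. Of all pairs of a gene and a cell type, 91 of 88959 were called (0.102%), and 5083 (5.71%) had an unadjusted p under 0.05, the pair in ependymal cells among them. Choroid plexus could not be compared between the groups, with 2 nuclei in 1 control library and 6 in 1 AgRP-Gq;POMC-Gi library.

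The other genes of the pathway were 42 in 6 lists. In neurons 31 of them were tested and 0 called by edgeR, with 2 (6.45%, against 5.51% of all genes) at an unadjusted p under 0.05, *Htr2b* (log2 fold change 0.21) and *Plcb1* (0.21), the phospholipase downstream of Gq. The median log2 fold change was 0.047 over these 31 genes and -0.00029 over all genes tested. In clusters 3779 pairs were tested, with 1 called higher and 2 lower (0.0794%, against 0.0385% over all genes) and 232 at an unadjusted p under 0.05 (6.14%, against 4.52%). In other cell types 1 of 247 pairs was called (0.405%, against 0.102%).

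*Adarb2*, a brain relative of the enzymes that edit *Htr2c* RNA, had both lower calls. In cluster 108 (*Sema3a*/*Il1rapl2*) it had 434, 761, 177 and 138 CPM (log2 fold change -1.77, SE 0.27, edgeR adjusted p = 4.58e-05), and in cluster 116 (*Prph*/*Slc5a7*) it had 118, 56.3, 2.16 and 13.5 CPM (-3.22, SE 0.62, adjusted p = 0.00482). The 15 and 12 control UMIs in cluster 116 came from 2 nuclei in each library, of which 1 held 10 and 9. *Kcnj3*, a subunit of the potassium channels that Gi/o-coupled receptors open, was called higher in cluster 156 (*Ankfn1*/*Pou4f1*), with 121, 178, 427 and 348 CPM (1.47, SE 0.35, adjusted p = 0.0172), and in astrocytes, with 71.9, 83.2, 107 and 140 CPM (0.71, SE 0.13, adjusted p = 0.0305). Cluster 156 also had the highest mean of *Htr1a* among clusters with UMIs in at least 3 libraries, at 17.2, 12.7, 0 and 5.19 CPM of that gene, from 4 UMIs in 4 of 71 nuclei. These calls were lost under 1 or more alternatives, in cluster 108 with the replicate block (adjusted p = 0.997), in cluster 116 without control replicate 1 (0.0969) or AgRP-Gq;POMC-Gi replicate 1 (0.0924) or with filterByExpr (0.203), in cluster 156 over all pairs (0.0852), with filterByExpr (0.157), in DESeq2 and with any 1 library left out (0.0640 to 0.476), and in astrocytes without control replicate 1 (0.109) or AgRP-Gq;POMC-Gi replicate 2 (0.0582). By list, the genes tested in neurons and their median log2 fold changes were 8 of 8 Gi/o effectors (-0.043), 5 of 6 Gq effectors (0.096), 8 of 8 Gs effectors (-0.053), 7 of 8 receptor partners and editing enzymes (0.047), 2 of 8 genes of serotonin synthesis, transport and breakdown (0.14) and 1 of 4 other receptors (0.21).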

How the data were processed

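The authors prepared nuclei with the 10x Genomics 3′ kit, counted UMIs with Cell Ranger 7.0.0 on GRCm38 and clustered with Seurat 4.3.0 and scVI, per the labels and the Methods. The deposited values used here are raw UMI counts per gene and nucleus, with the authors' table of kept nuclei, clusters and cell types. The authors' filter asked for 800 UMIs, 500 genes and a mitochondrial share of at most 10%, and kept nuclei had passed their doublet detection. No further doublet removal was run.

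For CPM, the counts of a gene in the nuclei of a cluster, cell type or class were added up within each library and scaled by the total of the same nuclei. Groups (2 libraries each) were compared with edgeR 4.0.16 (glmQLFit and glmQLFTest, TMM factors, R 4.3.3), keeping genes detected in 5% of nuclei or more, with Benjamini-Hochberg adjustment over all genes, in clusters with at least 5 nuclei per library. A transmitter class needed 20 UMIs of *Slc17a6* or 20 of *Slc32a1* in the cluster. Shares carry exact Clopper-Pearson intervals (95%), which cover counting error only, as does the limit of 3 counts for a share of 0. Tests were tried on simulated counts with 200 changed genes, of which edgeR called 99.5% at 2-fold in neurons (12115 genes), 67% at 1.5-fold there, and 76.5%, 52.5% and 54.5% at 4-fold in clusters 28, 82 and 109. All counts were drawn with a single dispersion, estimated on the sums over all neurons, also for the clusters. A wider spread of single genes, clusters or libraries was not simulated, so recovery in the data may be lower.

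Genes were placed by GENCODE M21 on GRCm38 and promoters taken from RefSeq (GRCm38.p6), which matched 8 of 10 members. Alternatives were no TMM factors, DESeq2 1.42.0, no filter, filterByExpr, the replicate number as a block, at least 10 nuclei, a 10-fold class rule, astrocytes as background, thinning to 800 or 2000 UMIs and each library left out. The members and the gene lists were chosen with earlier results of these data known. All 10 members are named, with up to 3 clusters of highest mean CPM for each (UMIs in at least 3 libraries), the 3 genes most like each (at least 500 UMIs in neurons, pseudocount 1) and clusters of the study, of which 1 is not reported here. The authors' IEG scores and the joined matrix were not used here. Python 3.11.15 with pandas 2.3.3, numpy 2.4.6, scipy 1.17.1 and matplotlib 3.10.9 was used for tables and plots.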

Additional observations from a re-analysis of the deposited data

Results flagged for a closer look

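The group difference of *Htr2c* had opposite signs in the clusters where this gene was called. Both AgRP-Gq;POMC-Gi libraries lay above both control libraries in cluster 97 and below both in clusters 31 and 63. Its log2 fold change in cluster 97 (*Gfral*/*Sctr*) exceeded that in cluster 31 (*Cdh3*/*Nkain3*) by 5.98 and that in cluster 63 (*Ebf2*/*Th*) by 6.65. The difference between clusters was not tested. In cluster 97 the group difference rested on 1 nucleus of 74 UMIs and 1 of 33, and the control libraries had 7 and 17 nuclei there. In cluster 63, of the 45 and 20 control UMIs, 21 and 17 came from 1 nucleus each.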

How the results depend on the processing

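Of the results on counts and levels, 139 settings kept the value within its limits and 32 moved it. Of those on single genes and ratios, 138 stayed on their side of the threshold or within their spread, 25 lost the call, 3 gained one, 14 moved and 5 turned direction. With 1 library left out, so that its group rests on a single library, the members called ranged from 0 to 3 in all neurons, 0 to 4 in the transmitter classes, 6 to 14 in clusters and 5 to 9 over all pairs. For the transmitter classes and over all pairs, the share of all genes called in these fits was not set beside these counts. No result is therefore read from the counts of members called there. In clusters, where 4 were called (2 over all pairs), DESeq2 called 0 (0), no filter 8 (7) and filterByExpr 2, and at least 10 nuclei in every library left 1 over all pairs. With the replicate block 5 pairs of a member were called within clusters and 5 over all pairs. The labels tie the replicate numbers to no shared animals or days. The deviations of same-numbered libraries had r = 0.11 in neurons, -0.0030 in glutamatergic and 0.19 in GABAergic neurons, 0.27 in oligodendrocytes and 0.30 in astrocytes, and the number of choroid plexus nuclei and the level of *Ttr* were low in both replicates 1 and high in both replicates 2. Over all genes, the calls in neurons were 0, against 12 in DESeq2, 169 with the replicate block and 0 to 2017 with other settings, and those in clusters 537, against 43 to 1339. Without a filter, which lets in genes under the 5% minimum of detection, the number of members called in other cell types was no longer 0. The share of all genes called there without a filter was not set beside this, so no result is read from it. The log2 fold change of *Htr2c* in neurons turned to -0.030 without TMM factors and ranged from -0.18 to 0.22 with 1 library left out, and that of *Htr4* from -0.088 to 0.26.

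With every neuronal cluster weighted equally, *Htr1f*, *Htr2c* and *Htr4* had 97.5, 664 and 53.1 CPM. The clusters above background became 16 for *Htr1d*, 18 for *Htr5a* and 7 for *Htr3a* by thinned shares, 73 of 77 for *Htr2c* with at least 10 nuclei, and with 1 library left out 6 to 7 for *Htr1a*, 13 to 17 for *Htr5a* and 0 to 1 for *Htr3a*. For *Htr3a* the thinned rule asked only for a UMI left in the cluster, because the share in oligodendrocytes was 0. *Htr1f* in GABAergic over glutamatergic neurons turned to 0.97 by the 10-fold rule. The cause of these changes was not tested, except that fewer clusters or genes enter under a stricter minimum. In simulated data edgeR called 52.5% to 76.5% of 4-fold changes in 3 clusters, so changes in single clusters can be missed at this depth. The simulated clusters had the dispersion of all neurons, so more may be missed in the data.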

Other observations

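Outside the 10 members, *Htr5b*, a receptor gene whose human counterpart is a pseudogene, was at 5.29, 0.911, 0.843 and 3.03 CPM in neurons. Of its 304 neuronal UMIs, 74.0% lay in 3 clusters. Cluster 72, with 76, 6, 6 and 39 nuclei, held 201 of them, and the others held 13 and 11. Cluster 72 (*Ano2*/*Foxp2*) had 113, 166, 22.3 and 130 CPM of it, from 123, 8, 1 and 69 UMIs with 6 nuclei each in control replicate 2 and AgRP-Gq;POMC-Gi replicate 1, and this cluster was also among the 3 highest for *Htr2a* and among the lowest for *Htr1f*. *Htr2b* was at 34.0, 32.4, 36.9 and 36.6 CPM in neurons, but 5.99% of oligodendrocytes had a UMI of it too, its median cluster was at 33.9 CPM and its gene overlaps the widely expressed *Psmd1* on the other strand. *Htr6* had 120 UMIs in neurons and *Htr3b* 19. *Htr6* was highest in the *Rxfp1*/*Ebf2* cluster, at 71.1, 0, 10.6 and 12.7 CPM.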
